A study of Mus musculus with 4 samples.

Results

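The clustered protocadherins were followed in mouse embryonic stem cells that lack both B-type lamins. Members were the rows of the deposited count table on chromosome 18 whose Ensembl gene ID has a symbol starting with Pcdha, Pcdhb or Pcdhg. There were 24 such rows among 37991 rows in all, made up of 1 Pcdha row, 22 Pcdhb rows and 1 Pcdhg row. RNA was sequenced from dKO cells, which are null for the B-type lamins, and from wt cells, with 2 biological replicates of each genotype. All 4 libraries carried the strain label ZHBTc4, a stem cell line whose Oct4 comes from a tetracycline-repressible transgene. The labels name no further allele, treatment or culture time, and do not say whether a genotype is 1 clone, so lamin loss and a difference between lines cannot be told apart.

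Clustered protocadherins are cadherin-like adhesion proteins of the cell surface, best known from neurons. Each Pcdha and Pcdhg isoform starts from its own promoter and variable exon, which is spliced to constant exons shared by the whole cluster, whereas Pcdhb genes are mostly single-exon genes. In neurons, promoters are chosen in different combinations from cell to cell, with looping by CTCF and cohesin, and the resulting surface code takes part in self-avoidance of neurites. DNA methylation of a variable promoter goes with its silence, and the C-type isoforms at the end of the alpha and gamma clusters are regulated apart from the others.

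Total counts were 16697970 and 16584014 in the dKO libraries and 12899964 and 14941952 in the wt libraries. The targeted transcripts had the genotype of their labels. Lmnb1 had 5.13 ± 1.26 CPM in dKO and 607 ± 85.2 CPM in wt cells, and Lmnb2 had 2.90 ± 0.54 CPM in dKO and 111 ± 8.83 CPM in wt cells (SD, n = 2 each). CPM are read counts scaled to one common library size, after TMM factors that adjust for differences in RNA composition. Stem cell markers were abundant, with summed levels of 6389 and 6760 CPM over 10 genes in dKO libraries and 5585 and 5527 CPM in wt libraries, and 0 of the 10 were called by edgeR. Zfp42, a naive-state zinc finger gene, came nearest, at 1442 ± 10.1 CPM in dKO and 640 ± 36.9 CPM in wt cells (1.17, adjusted p = 0.0886), and Esrrb, an orphan nuclear receptor, had 0.32. Fgf4, a growth factor of these cells, had 523 ± 53.5 CPM in dKO and 309 ± 21.5 CPM in wt cells (0.76, edgeR adjusted p = 0.338), and it and Zfp42 were called by edgeR with no low-count filter and by DESeq2. Of the 10 fibroblast markers, which feeder cells would bring, the summed level was 16.9 and 11.3 CPM in dKO libraries and 17.1 and 18.5 CPM in wt libraries, with Lum at 0 in both dKO libraries and at 1 count in each wt library. Of 6 tested fibroblast markers 0 were called by edgeR, 1 was at an unadjusted p under 0.05 and the median log2 difference was -0.53, with 0.26 for Fbn1 (a microfibril protein) and -0.04 for Thy1 (a surface glycoprotein). The collagen genes Col1a1 and Col1a2 had -0.83 and -1.51. Pdgfrb, a growth factor receptor of mesenchymal cells, was the gene at the unadjusted p under 0.05, with 1 and 7 counts in dKO and 13 and 56 counts in wt libraries (-3.25, SE 0.96, edgeR adjusted p = 0.72). Fgf4, the collagen genes and Pdgfrb were picked out after their values were seen. The part of such cells in the values that follow was not tested.

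The alpha and gamma rows do not stand for single isoforms. The alpha row carries the ID that is now named Pcdha11 (ENSMUSG00000007440, 37089939 to 37347311 in the table's own build) and spans 257.4 kb. In GENCODE M21 the whole Pcdha cluster of 14 genes spans 257.5 kb, and the gene with that ID spans 182.5 kb. The gamma row carries the ID that is now named Pcdhgc4 (ENSMUSG00000023036, 37833989 to 38001527) and spans 167.5 kb. The M21 gene with this ID spans 26.8 kb, and the stretch from Pcdhga3 to the end of the cluster, with 20 of the 22 Pcdhg genes, spans 167.6 kb. The other 13 Pcdha and 21 Pcdhg genes of M21 have no row of their own. The rows are therefore called the alpha row and the gamma row here, and the C-type isoforms, which have no separate rows, were not analysed. Which exons were counted into these rows is not given in the sources used here. The 22 Pcdhb genes had a row each, from 2.46 to 7.13 kb long.

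The gamma row held nearly all reads of the clustered protocadherin rows. It had 838 and 1227 counts in the dKO libraries and 653 and 1020 counts in the wt libraries, which was 95.5% of all member counts. Scaled to library size these were 51.5 and 73.2 CPM in dKO cells and 51.1 and 67.1 CPM in wt cells. The genotypes overlapped, and within each genotype the library numbered 2 was the higher. The mean was 62.3 ± 15.4 CPM in dKO and 59.1 ± 11.3 CPM in wt cells (SD, n = 2 each), and the fitted log2 difference was 0.08, within 95% limits of -0.47 and 0.63 (edgeR quasi-likelihood test with Benjamini-Hochberg adjustment, adjusted p = 0.993). Neither the gamma nor the alpha row was called, where 0.0855% of 14027 tested genes were called and 5.57% had an unadjusted p under 0.05.

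**Figure D1:**
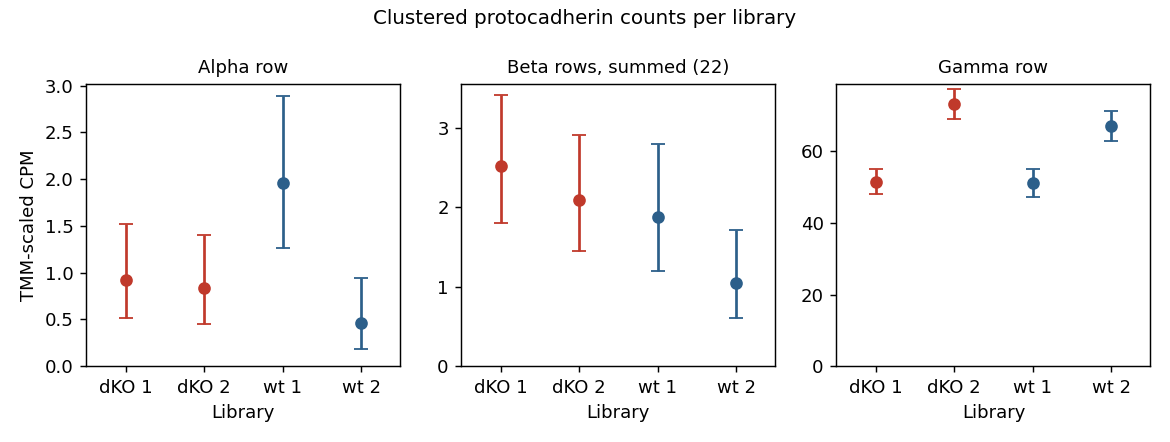
TMM-scaled CPM of the alpha row, the 22 beta rows summed and the gamma row in each of the 4 libraries, dKO in red and wt in blue; points are single libraries and bars are exact 95% Poisson intervals for counting error only. The gamma row was at 51.5 and 73.2 CPM in dKO and 51.1 and 67.1 CPM in wt libraries, while the beta sum stayed between 1.05 and 2.52 CPM.

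The same-numbered libraries of the gamma row lay close together across genotypes. The log2 ratio of dKO over wt was 0.01 between the replicates numbered 1 and 0.13 between the replicates numbered 2, smaller than the log2 ratio of library 2 over library 1, which was 0.51 in dKO and 0.39 in wt cells. In an edgeR fit with genotype and replicate number as terms, chosen after the values were seen, the difference between replicate numbers was 0.45 for the gamma row (SE 0.10, adjusted p = 0.0021, higher in 2 of 2 genotypes). Such a call was common, at 21.7% of 14027 tested genes in either direction and 12.3% higher in the libraries numbered 2. For genotype, the same fit could test 2 of the 24 members, the alpha and gamma rows, and 13 neighbours; it called 0 of them, against 9.26% of genes. The summed level of 13 neural and neuronal markers was higher in the libraries numbered 1, at 442 and 303 CPM in dKO libraries 1 and 2 and 404 and 269 CPM in wt libraries 1 and 2. Most of this sum was Stmn2, a neuronal microtubule regulator, at 309 and 210 CPM in dKO libraries 1 and 2 and 242 and 167 CPM in wt libraries 1 and 2, and 2 of the 13, Dcx and Rbfox3, were instead higher in library 2 of both genotypes. With genotype as the single term, Stmn2 had 0.34 and Nes, an intermediate filament of neural progenitors, had -0.54 as log2 fold changes of dKO over wt. That fit called 0 of the 9 neural markers tested. With replicate number as a further term, edgeR called 2 of the 9 for genotype, against 9.26% of genes. They were Nes (-0.52, adjusted p = 0.0040) and Stmn2 (0.34, adjusted p = 0.0149). No neural marker was at 0 in all 4 libraries, and their part in the gamma values was not tested. In bulk samples, fewer cells that use a gene and less RNA per cell cannot be told apart.

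The alpha row was near the limit of detection. It had 15 and 14 counts in the dKO libraries and 25 and 7 counts in the wt libraries, or 0.92 and 0.84 CPM in dKO and 1.95 and 0.46 CPM in wt cells. Both dKO values lay between the wt values. The fitted log2 difference was -0.43, within 95% limits of -2.22 and 1.36 (edgeR, adjusted p = 0.99). These limits are wide, so differences of either sign between them are not excluded. The sign rested on wt replicate 1: without it the log2 ratio of mean CPM was 0.93, against -0.46 with all libraries. The difference between replicate numbers was not called for this row (-1.06, SE 0.47, edgeR adjusted p = 0.113).

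Per length of exon, the clusters differed widely in level within the same cells. Because the counted exons are not known, levels of the alpha and gamma rows were computed over the exons of the ID and over the exons of all genes within the span. The gamma level was 11.1 CPM per kb in dKO and 10.6 CPM per kb in wt cells over the 5.60 kb of its own ID, and 0.96 and 0.91 CPM per kb over 65.1 kb. The median of 20214 protein-coding rows was 1.12 CPM per kb in dKO and 1.17 CPM per kb in wt cells, so the gamma row lay near or above the middle of protein-coding genes. The alpha level was 0.16 CPM per kb in dKO and 0.23 CPM per kb in wt cells over 5.36 kb, and 0.022 and 0.030 CPM per kb over 40.8 kb. The beta sum was 0.025 CPM per kb in dKO and 0.016 CPM per kb in wt cells over the 92.7 kb of its 22 genes, below the alpha level by either length in wt cells and within its range in dKO cells. The beta lengths are M21 exon lengths, and for some genes they exceed the row itself, as with 6.61 against 3.07 kb for Pcdhb22.

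**Figure D2:**
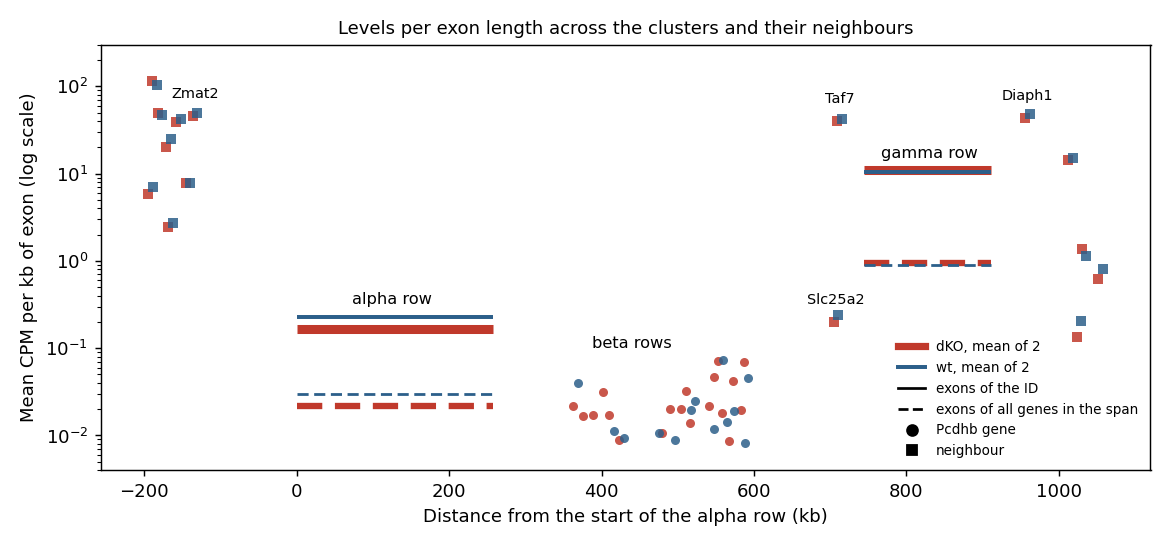
Mean CPM per kb of exon (log axis) against distance from the start of the alpha row, in kb, for dKO (red) and wt (blue), each a mean of 2 libraries; solid and dashed bars use the 2 exon lengths named in the key, circles are Pcdhb genes and squares are protein-coding neighbours, and genes at 0 are not drawn. Over M21 exon lengths, which for some Pcdhb genes exceed the row itself, the Pcdhb genes lie below 0.08 CPM per kb. Taf7, between the beta and gamma rows, lies at 39.9 CPM per kb in dKO and 41.8 CPM per kb in wt cells.

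The beta genes were nearly silent in both genotypes. Summed over the 22 genes there were 41 and 35 counts in the dKO libraries and 24 and 16 counts in the wt libraries, and no gene had more than 8 counts in any library. In CPM the sums were 2.52 (exact 95% Poisson interval 1.81 to 3.42) and 2.09 (1.45 to 2.90) in dKO libraries, against 1.88 (1.20 to 2.79) and 1.05 (0.60 to 1.71) in wt libraries. The dKO sums lay above the wt sums, with a ratio of mean CPM of 1.57 (log2 0.65, against a pooled replicate SD of 0.44), while the counting intervals of dKO replicate 2 and wt replicate 1 overlapped widely. Intervals cover counting error only. Genotypes that do not overlap in CPM are common in these libraries, at 33.6% of 14027 tested rows, and a sum over chosen members was given no test. Leaving out wt replicate 1 gave a log2 ratio of 1.13, and leaving out wt replicate 2 gave 0.30, so the size of the difference rested on the wt libraries.

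No beta gene passed the low-count filter of the test, and the differences between genotypes were of single reads. Of the 22 genes, 14 had a higher mean CPM in dKO and 6 in wt cells, and Pcdhb1 and Pcdhb3 had 0 counts in all 4 libraries, which allows up to 0.0491 CPM over the 4 libraries together. Among the 22807 rows with at least 1 count, 47.6% had the higher mean in dKO cells. In the edgeR fit with no low-count filter, 0 of the 20 genes with a count were called, against 0.351% of 22807 rows; 1 of 20 had an unadjusted p under 0.05, against 5.01% of rows. DESeq2 gave 0 of the 20 an adjusted p and 0 an unadjusted p under 0.05. Over all 3 clusters, 12 of the 24 members had a count in both dKO libraries and 9 in both wt libraries, against 47.5% of all rows in dKO and 47.4% in wt cells.

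Pcdhb22, the last gene of the cluster, had the most counts, with 7 and 8 in dKO and 6 and 2 in wt libraries. Pcdhb17 had 6 and 5 counts in dKO and 7 and 2 counts in wt libraries. Both overlapped between genotypes, at mean levels of 0.069 and 0.072 CPM per kb in dKO and 0.045 and 0.073 CPM per kb in wt cells for Pcdhb22 and Pcdhb17 in turn. These levels use M21 exon lengths of 6.61 and 4.66 kb, longer than the rows of 3.07 and 3.27 kb, so the order of the 2 genes per kb is uncertain. Pcdhb14 had 3 and 1 counts in dKO and 3 and 3 counts in wt libraries. Pcdhb13 had 2 and 2 counts in dKO and 1 and 1 counts in wt libraries. Pcdhb19 had 2 and 0 counts in dKO and 1 and 3 counts in wt libraries. In CPM, Pcdhb13 was higher in both dKO libraries and Pcdhb14 in both wt libraries, while Pcdhb19 overlapped. Neither difference was called (edgeR with no filter, adjusted p = 0.968 for Pcdhb13 and 0.932 for Pcdhb14). Genotypes did not overlap in 33.6% of 14027 tested rows, which leave out the Pcdhb genes.

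Pcdhb16 was the gene with the unadjusted p under 0.05. It had 5 and 3 counts in the dKO libraries and 0 in both wt libraries, higher in 2 of 2 dKO libraries. Against a floor of 3 counts over the wt group the ratio was 2.26, with the dKO count taken as exact. The fitted 95% limits were 0.82 and 9.06 on the log2 scale (edgeR with no filter, unadjusted p = 0.022, adjusted p = 0.771). Pcdhb20 had 3 and 2 counts in dKO and 0 in both wt libraries, a ratio of 1.41 against the same floor. Its fitted limits, -0.49 and 9.07, included 0 (edgeR with no filter, adjusted p = 0.929). In all, 7 beta genes had counts in dKO cells and none in wt cells, and 1, Pcdhb9, had a count in wt cells and none in dKO cells. Among the 8029 rows with a total of 1 to 23 counts, the range of the beta genes, 19.9% had counts in dKO only and 19.7% in wt only. Both dKO libraries were deeper than both wt libraries. The number of beta genes with a count was 16 and 13 in dKO and 10 and 10 in wt libraries; expected at the depth of the shallowest library, it was 14.4 and 11.9 in the dKO libraries and 9.1 in wt library 2, wt library 1 being the shallowest.

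**Figure D3:**
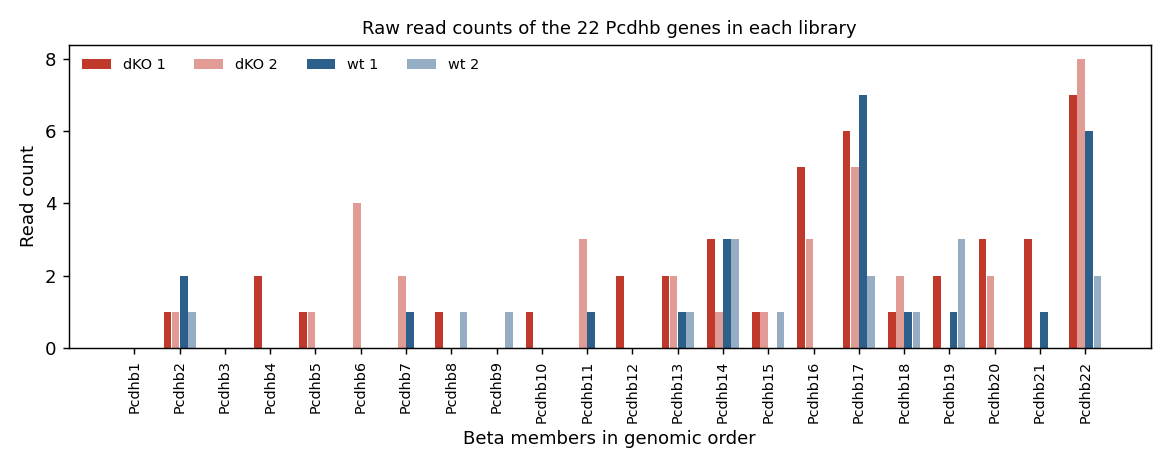
Raw read counts (linear axis from 0) of each of the 22 Pcdhb genes, in genomic order from left to right, in dKO libraries 1 and 2 (red) and wt libraries 1 and 2 (blue). No bar exceeds 8 counts, and the taller bars lie towards the right, at Pcdhb16, Pcdhb17 and Pcdhb22.

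Counts of the beta genes gathered at the end of the cluster nearer to the gamma genes. Pcdhb12 to Pcdhb22 had 35 and 24 counts in dKO and 20 and 13 counts in wt libraries, against 6 and 11 counts in dKO and 4 and 3 counts in wt libraries for Pcdhb1 to Pcdhb11. These 11 genes near the end held 79.3% of all 116 beta counts, a split chosen after the counts were seen and given no test. They also held 59.5% of the exon length of the 22 genes. Per length, Pcdhb12 to Pcdhb22 had 0.032 CPM per kb in dKO and 0.022 CPM per kb in wt cells, and Pcdhb1 to Pcdhb11 had 0.014 CPM per kb in dKO and 0.0068 CPM per kb in wt cells. The raw counts were higher for Pcdhb12 to Pcdhb22 in each of the 4 libraries. Sequence shared with other genes can lower a count, and the share of 50-base windows of the M21 transcripts found in no other gene was above 90% for 20 of the 22 beta genes. Pcdhb12 was lowest at 35.8%, sharing windows with the M21 predicted gene Gm37446 and with other Pcdhb genes, and Pcdhb21 was at 88.7%. Reads of such shared stretches are uncertain in their gene. The length of the reads is not given in the sources used here, so these windows describe the sequence and not the reads.

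Most protein-coding genes around and between the clusters were expressed, and none was called between genotypes. Within 200 kb of the clusters 15 protein-coding genes had a count, 13 passed the filter, and edgeR called 0 of them (0 at an unadjusted p under 0.05), as did DESeq2. Their log2 fold changes, 3 positive and 10 negative, had a median of -0.10 and ran from -0.36 for Arap3, a GTPase-activating protein gene, to 0.26 for Fchsd1, an F-BAR protein gene. Taf7, a subunit of the transcription factor TFIID that lies between the beta and gamma rows, had 2203 and 2150 counts in dKO and 1831 and 2017 counts in wt libraries, or -0.07 on the log2 scale (95% limits -0.35 and 0.22). Slc25a2, a mitochondrial ornithine carrier beside it, had 4 and 5 counts in dKO and 5 and 4 counts in wt libraries. On the far side of the gamma row, Diaph1, a formin that nucleates actin filaments, had 275 ± 41.7 CPM in dKO and 307 ± 13.8 CPM in wt cells (SD, n = 2 each; -0.16, edgeR adjusted p = 0.978). The histone deacetylase gene Hdac3 had 58.7 ± 7.27 CPM in dKO and 61.0 ± 4.98 CPM in wt cells (-0.06). Ahead of the alpha row, the log2 fold change was -0.13 for the spliceosome gene Zmat2, and -0.10 and -0.01 for the histidyl-tRNA synthetase genes Hars and Hars2. It was 0.07 for the spliceosome gene Ik and 0.15 for Ndufa2, a subunit of respiratory complex I. Wdr55, with the lowest adjusted p of the neighbours (edgeR, 0.942), had -0.29, the germ cell RNA-binding gene Dnd1 had -0.13 and Tmco6 had -0.27. Rell2, below the filter, had 8 and 7 counts in dKO and 10 and 9 counts in wt libraries.

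Of the noncoding rows, 3222401L13Rik, a lincRNA gene just before the gamma row, had 16 and 16 counts in dKO and 21 and 27 counts in wt libraries. Its genotypes did not overlap (0.97 ± 0.02 CPM in dKO and 1.71 ± 0.09 CPM in wt cells, SD, n = 2 each), as in 33.6% of 14027 tested rows. It was not called (-0.82, SE 0.40, edgeR adjusted p = 0.917). An unnamed row inside the span of the gamma row had 21 and 42 counts in dKO and 8 and 33 counts in wt libraries. Like the gamma row it was higher in the library numbered 2 of each genotype, and its genotypes overlapped (0.42, SE 0.67, edgeR adjusted p = 0.987). Both were described after their values were seen. Whether counting used strand is not given, so reads of overlapping rows cannot be assigned with certainty.

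**Figure D4:**
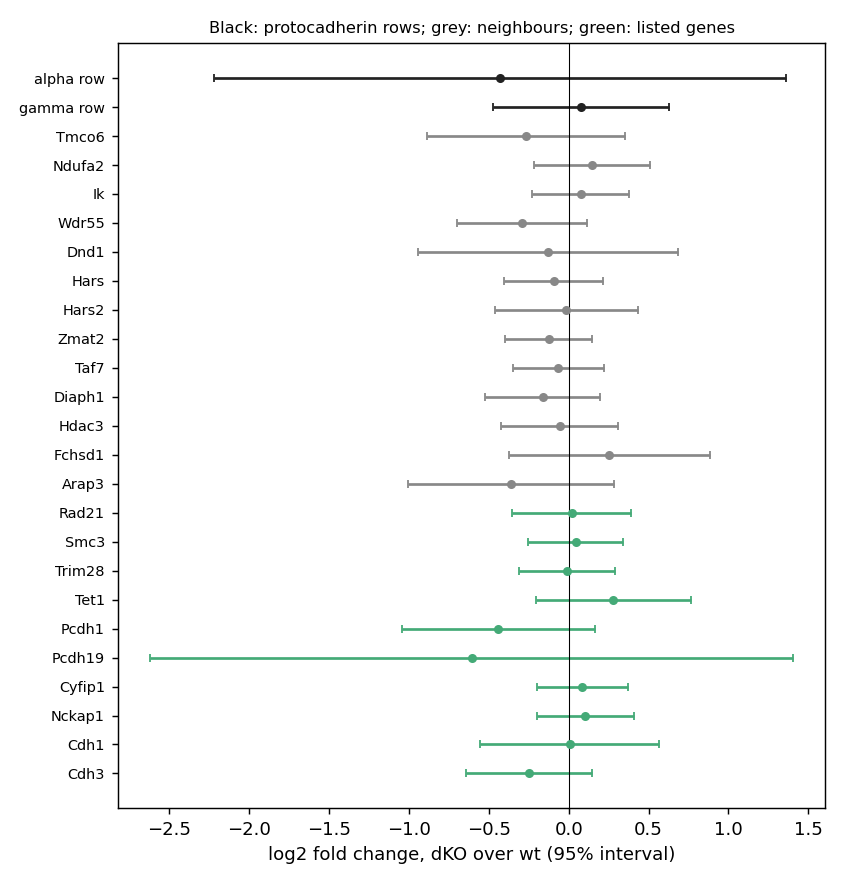
Log2 fold change of dKO over wt with its 95% interval from the edgeR fit for the alpha and gamma rows (black), the 13 tested protein-coding neighbours (grey) and 2 genes from each list of regulators, partners and relatives (green). Every interval drawn crosses 0, and that of the gamma row (0.08) is far narrower than that of the alpha row (-0.43). The listed genes drawn are those with the highest CPM. Intervals that exclude 0 belong to genes not drawn: Nipbl (0.07 to 0.66), Smchd1 (0.01 to 0.80), Rest (0.04 to 0.61) and Wiz (-0.77 to -0.20), none of them called in this fit.

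Genes for proteins that shape protocadherin promoter choice in neurons were expressed as RNA in these cells. CTCF, which binds the variable promoters, had 233 and 225 CPM in dKO and 216 and 228 CPM in wt libraries (0.05, edgeR adjusted p = 0.993). Of the 14 genes for CTCF, cohesin and loop regulators, all were tested and 0 were called, with 11 positive and 3 negative log2 fold changes and a median of 0.06, beside a median of -0.002 over all tested genes. The cohesin subunit genes Rad21 and Smc3 had 0.02 and 0.04. Nipbl, the cohesin loader, was the 1 gene with an unadjusted p under 0.05, at 196 ± 3.45 CPM in dKO and 152 ± 12.1 CPM in wt cells (0.37, SE 0.12, edgeR adjusted p = 0.765).

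With genotype as the single term, edgeR called no repressor or DNA methylation enzyme linked to these clusters. Once replicate number was added as a term, 5 of the 15 were called, against 9.26% of 14027 tested genes. The calls went both ways, with Smchd1, Tet2 and Rest higher and Wiz and Dnmt3b lower in dKO cells. The labels do not say what a replicate number shares. All 15 genes were tested, with 9 positive and 6 negative log2 fold changes and a median of 0.11. Trim28, a corepressor of zinc finger proteins, had -0.01, and Tet1, which oxidises methylcytosine, had 0.28. The 3 genes with an unadjusted p under 0.05 are given here after their values were seen. Smchd1, an SMC-family repressor that acts on clustered protocadherins, had 158.5 and 132 CPM in dKO and 121 and 98.2 CPM in wt libraries (0.41, SE 0.16, edgeR adjusted p = 0.888). Its dKO values lay above its wt values, and 33.6% of 14027 tested rows had genotypes that did not overlap. Wiz, a zinc finger partner of the G9a and GLP methyltransferases, had 69.9 and 73.8 CPM in dKO and 97.7 and 103 CPM in wt libraries (-0.49, SE 0.12, edgeR adjusted p = 0.583). Rest, a repressor of neuronal genes, had 568 ± 17.1 CPM in dKO and 454 ± 14.8 CPM in wt cells (0.32, SE 0.11, edgeR adjusted p = 0.832). The DNA methyltransferase gene Dnmt3b had 164 ± 35.4 CPM in dKO and 208 ± 48.4 CPM in wt cells (SD, n = 2 each; -0.35, edgeR adjusted p = 0.953).

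Most protocadherins outside the clusters were also low. The highest of the 12 listed, Pcdh1, had 0.75 CPM per kb in dKO and 1.02 CPM per kb in wt cells. The medians of protein-coding rows were 1.12 CPM per kb in dKO and 1.17 CPM per kb in wt cells. Of 12 genes 5 passed the filter; edgeR and DESeq2 called 0, and 0 were at an unadjusted p under 0.05. Of these 5, 2 were higher and 3 lower in dKO cells by sign alone, and the median log2 difference was -0.44. Pcdh1 had 6.63 and 6.62 CPM in dKO and 9.85 and 8.15 CPM in wt libraries (-0.44, SE 0.24, edgeR adjusted p = 0.942). Pcdh19 had 1.11 and 4.65 CPM in dKO and 2.03 and 6.71 CPM in wt libraries, so the spread within each genotype exceeded the difference between them (-0.61, SE 0.81). The classical cadherin of these cells, Cdh1, had 435 ± 116 CPM in dKO and 434 ± 80.0 CPM in wt cells (0.01), and Cdh3 had -0.25. The 6 tested genes of a wider cadherin list had a median of 0.23, with 4 positive and 2 negative values. Cdh13, which is not a classical cadherin, had the highest value, 0.68, from 19 and 8 counts in dKO and 10 and 4 counts in wt libraries. Of the 6, 0 were called by edgeR or DESeq2 and 0 were at an unadjusted p under 0.05.

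Processing enzymes and signalling partners of protocadherins were measured as well. They include the secretase subunits that cleave the proteins and the WAVE complex that binds their cytoplasmic ends. All 17 genes were tested and 0 were called by edgeR or DESeq2, with 14 positive and 3 negative log2 fold changes, a median of 0.09 and 0 genes at an unadjusted p under 0.05. The WAVE complex genes Nckap1 and Cyfip1 had 0.10 and 0.08. Ptk2b, a focal adhesion family kinase that binds protocadherin tails, had the highest value of the list, with 28.6 and 17.96 CPM in dKO and 18.3 and 9.86 CPM in wt libraries, which overlapped (0.73, SE 0.37, edgeR adjusted p = 0.922). It was picked out after its values were seen.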

How the data were processed

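RNA of 2 dKO and 2 wt mouse embryonic stem cell samples was isolated with Trizol, and libraries came from the Illumina TruSeq RNA kit per the labels' protocols. Raw read counts were deposited by the authors per Ensembl gene in 1 table, with gene positions in a build that is not given in the sources used here. TopHat2 2.0.6, TopHat and HTSeq are named, without roles, in the submitters' processing notes. GENCODE M21 gave symbols to 32919 of 37991 rows by gene ID, and exon lengths, gene types and transcript windows. It was used for lengths and not for coordinates of the table.

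Low-count genes were removed by filterByExpr, and libraries were scaled with TMM factors. Genotype was the single term of a robust quasi-likelihood model in edgeR 4.0.16, run in R 4.3.3, and p-values of 14027 genes were adjusted by Benjamini-Hochberg, with calls at 0.05. SEs come from the F statistic. Sums over members were given no test. Exact permutation of 2 against 2 libraries cannot go below p = 0.333. The fit for replicate number and the split of the Pcdhb genes were added after the data were seen. Alternatives were DESeq2 1.42.0, other scalings and filters, a replicate block and leaving out each library. The members, lists and rule for named genes (members past the filter, the 6 Pcdhb genes with the most counts, and 2 genes per list, called ones first and otherwise those with the highest CPM) were chosen with earlier results of these data known. Sox1 was not analysed here.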

Additional observations from a re-analysis of the deposited data

How the results depend on the processing

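Of the members and protein-coding neighbours that each of the 10 alternatives could test, 0 were called. The Pcdhb genes were below the filter in the block fit and had no adjusted p in DESeq2. A block fit with no low-count filter, which could test the Pcdhb genes with a count, was also run and is not reported here. The adjusted p of the gamma row ran from 0.745 with a replicate block to 0.9999 with DESeq2, and that of the alpha row from 0.725 to 0.9999. The alpha row did not pass a filter of 1 CPM in all libraries of a group. Over all genes, 12 were called; omitting the low-count filter gave 80, DESeq2 gave 92, a replicate block gave 1299, and leaving out 1 library gave 18 to 27. The cause was not tested. Same-numbered libraries deviated together (r = 0.68 of deviations from genotype means), but the labels do not say what a number shares. The gamma row had a log2 fold change of 0.07 in the block. The block called 9.26% of 14027 tested genes. It called 5 of 15 silencing regulators (Wiz 0.0015, Smchd1 0.0044, Dnmt3b 0.0138, Tet2 0.0147 and Rest 0.0224 as adjusted p), 2 of 14 CTCF and cohesin genes (Nipbl 0.0092 and Pds5a 0.048), 1 of 17 partners (Ptk2b 0.00096) and 1 of 6 fibroblast markers (Pdgfrb 8e-05). With 1 library left out the log2 ratio ran from -1.15 to 0.93 for the alpha row, from 0.30 to 1.13 for the beta sum and from -0.19 to 0.31 for the gamma row. The beta ratio was 0.67 without Pcdhb22, the gene with the most counts; sums without a top member or without C-type members could not be made for alpha and gamma, which have 1 row each. Members with a count in both libraries numbered 12 in dKO and 9 in wt cells; with at least 3 counts they numbered 5 and 3, and with at least 10 counts 2 and 1. Of 33 named genes 14 changed sign under some alternative, with 0 calls among the sign changes; Zfp42 became called with no filter, with the block and by DESeq2, as did Fgf4 (adjusted p of 0.0266 with no filter and 1.8e-05 with the block), and Esrrb, Stmn2 and Nes with the block. Depth limits the alpha and beta rows: 3 counts in a library correspond to 0.18 CPM in both dKO libraries and to 0.23 and 0.20 CPM in the wt libraries.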
